A study of Bos grunniens with 6 samples.

Results

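The genes described here were very abundant in the sexually mature yak testis and low in the juvenile testis. Testis tissue of yak (Bos grunniens) came from 3 juvenile animals of 6 months (Y6M) and 3 sexually mature animals of 30 months (Y30M), all healthy males with no treatment or genetic change named. RNA with a poly(A) tail was fragmented, and an input library without antibody was sequenced from each animal beside the library enriched with an antibody against N6-methyladenosine (m6A). Expression was given as FPKM, the number of fragments per kilobase of gene model, scaled by the mapped reads in its library. A gene was a member when it had at least 300 FPKM in all 3 Y30M input libraries, at least 0.1 FPKM in at least 1 Y6M input library, and a largest Y6M value below 1/10 of its smallest Y30M value. Of 20953 genes in the table, 49 were members. KIF17, which met the same limits, was left out by the rule. Because the members were chosen by these values, the difference between the ages is a description and was not tested.

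The testis after sexual maturity holds meiotic and post-meiotic germ cells that the juvenile testis lacks or holds in small number. In mammals, spermatids transcribe many genes that few other cells use, among them genes for the compaction of sperm chromatin, the acrosome, the flagellum and the sperm's own energy metabolism, and they store many of these mRNAs until late in their development. m6A is a methyl mark on adenosines of mRNA, often found near stop codons and in long exons, and its readers act on the stability and translation of the mRNA. In whole tissue, fewer cells of a type and less RNA per cell cannot be told apart.

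The 6 input libraries had between 24.4 M (Y6M replicate 3) and 34.7 M (Y30M replicate 2) mapped reads, recovered from the steps between FPKM values. Markers of the labelled tissue were present at both ages, with SOX9 and FSHR of Sertoli cells and LHCGR of Leydig cells above 0 in all 6 libraries. The germ cell lists could be checked with 3 spermatocyte genes, because no gene of the spermatogonium and spermatid lists had a name in the sources used here. A gene name was at hand for 2133 genes, and for 1 of the 49 members.

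Members took a large share of the mature libraries. Their summed FPKM was 0.115%, 0.114% and 0.0771% of all FPKM in Y6M replicates 1, 2 and 3. In Y30M it was 6.46%, 11.1% and 7.07%. The means were 0.102% ± 0.0218 in Y6M and 8.20% ± 2.50 in Y30M (SD, n = 3 each), and the lowest Y30M library lay far above the highest Y6M library. As a background, 32.2% of the 19477 genes above 0 in any library were higher in every Y30M library than in every Y6M library, while for the members the rule itself set this.

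FPKM gives short genes more weight than long ones, so the share was also computed from reads. The members held 26199, 29073 and 14408 reads in the Y6M libraries, which was 0.0900%, 0.0881% and 0.0605% of the reads in genes. They held 1257156, 2060880 and 1340901 reads in the Y30M libraries, or 3.90%, 5.99% and 3.99%. The mean share of reads in Y30M was 4.63% ± 1.18 (SD, n = 3), below the share of FPKM in each of the 3 libraries, and Y30M replicate 2 was the highest on both scales.

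**Figure D1:**
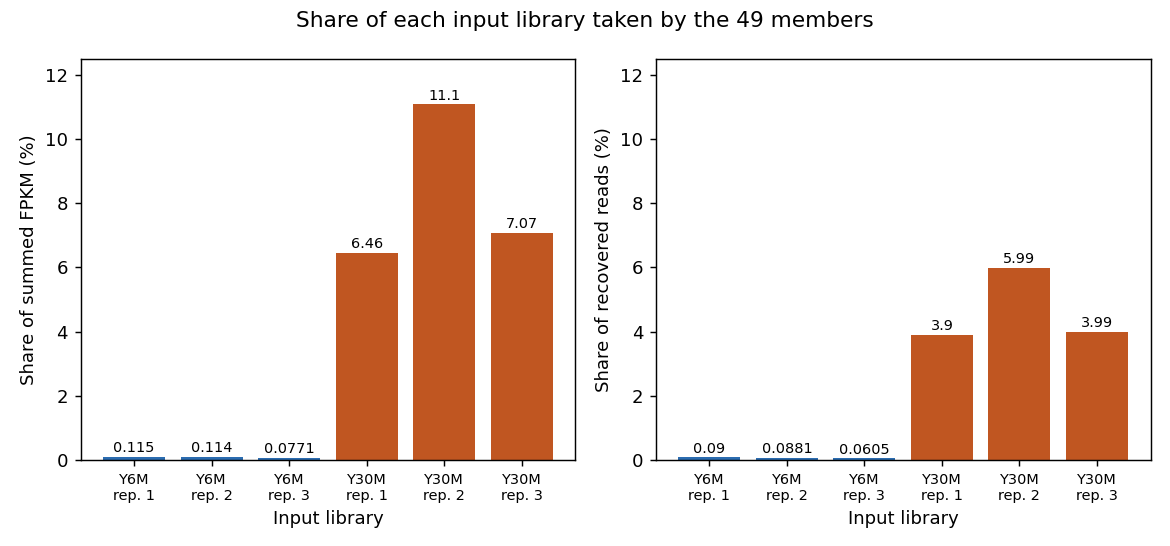
Share (%) of summed FPKM (left) and of recovered reads (right) that the 49 members took in each input library, with 1 bar per library, blue for Y6M and orange for Y30M, and the value above it. The Y6M bars lie at or below 0.115% and the Y30M bars between 3.90% and 11.1%, highest in replicate 2.

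The 138 other genes with at least 300 FPKM in all Y30M libraries were mixed in their course. Together they took 40.4% ± 0.195 of summed FPKM in Y6M and 21.4% ± 1.39 in Y30M (SD, n = 3 each). Of these 138 genes, 61 were higher and 52 lower in Y30M by limma on log2(FPKM + 1), with the study's limits of 0.05 on the unadjusted p and 1.5 on the fold change, where 27.3% of all genes tested were higher and 19% lower. Their median log2 fold change was 0.21, and that of all genes tested was 0.04. For the members, the median of the same fitted value was 8.12, with a range from 3.85 to 10.75, and the choice of members fixed its sign.

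A few members held much of the total. The 5 most abundant members made up 29.0%, 37.5% and 29.4% of the members' FPKM in Y30M replicates 1, 2 and 3. Without the most abundant member, the share of summed FPKM in Y30M was 7.09% ± 1.85 (SD, n = 3). Of the 50 genes with the highest FPKM in a library, 11, 22 and 14 were members in the Y30M replicates, and 0 in each Y6M library.

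The most abundant member was ENSBGRG00000002189, a gene model of 168 bp without a name. It had 3241, 11308 and 5822 FPKM in Y30M replicates 1, 2 and 3, where it was the 7th, the 1st and the 3rd gene by FPKM. In Y6M it had 9.85, 2.83 and 0 FPKM, from 49, 16 and 0 reads. It was thus read rarely or not at all in the juvenile libraries, and in Y30M replicate 2 it alone took 1.85% of summed FPKM.

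The next member, ENSBGRG00000020612, a gene model of 561 bp without a name, was the highest of the members in each juvenile library. Its mature values were 2429, 3586 and 2054 FPKM, and its juvenile values were 187, 200 and 157 FPKM. The juvenile values were close to each other, and this gene lay nearest to the limit on the ratio, with a smallest Y30M value 10.3 times its largest Y6M value.

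GSG1 (ENSBGRG00000001024, germ cell associated 1), which encodes a membrane protein of testicular germ cells, was the only member with a name and stood 21st by its mean in Y30M. It had 442, 1204 and 659 FPKM in Y30M replicates 1, 2 and 3. In Y6M it had 1.09, 0.907 and 0.588 FPKM, from 56, 53 and 25 reads. The mature replicate 2 was the highest, as for most members, and the gene model of 1739 bp had no listed m6A peak.

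Over all 49 members, the mean in Y30M ran from 330 to 6791 FPKM with a median of 648, and 14 members were above 1000. The mean in Y6M ran from 0.216 to 181 FPKM with a median of 1.24. The ratio of the means ran from 14.8 to 3416 with a median of 520. It was above 100 in 32 members, above 1000 in 17, and below 30 in 8.

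**Figure D2:**
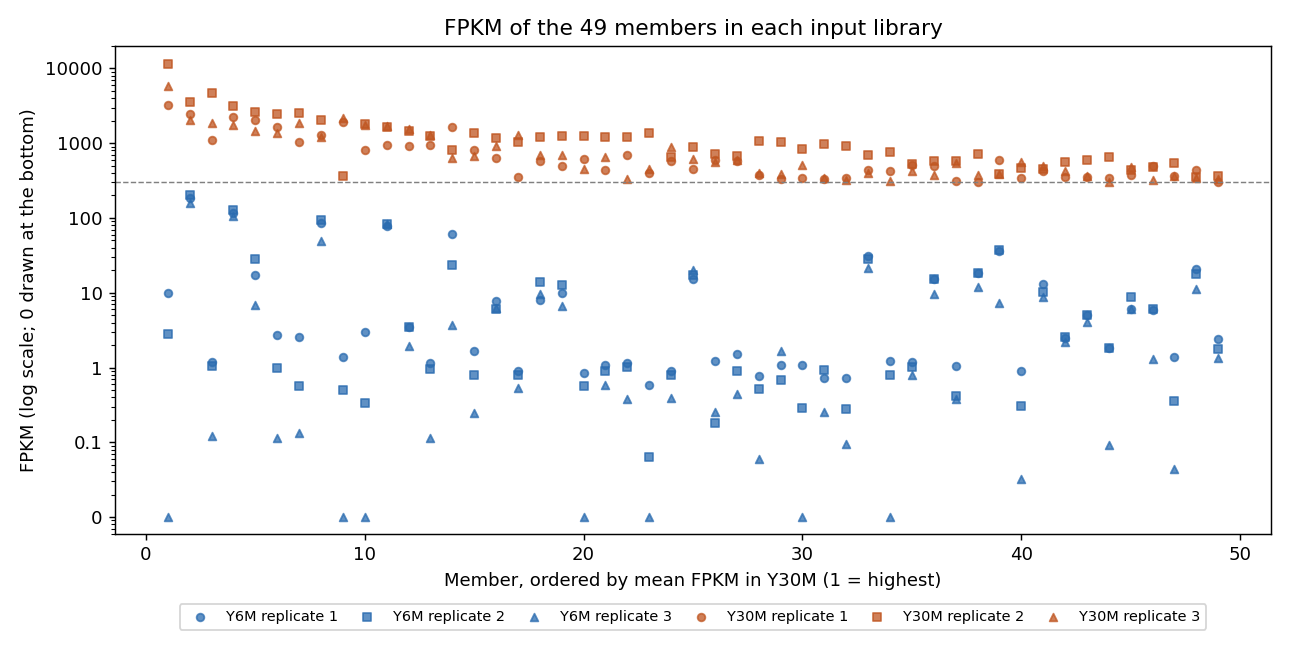
FPKM (log scale, values of 0 drawn at the bottom) of the 49 members, ordered by their mean in Y30M, with 1 point per input library, blue for Y6M and orange for Y30M, and a dashed line at 300 FPKM. The Y30M points lie between 300.0 and 11308 FPKM, while the Y6M points spread from 0 to 200 FPKM.

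The limits of the rule cut through a continuous range. The 3 members with the lowest smallest Y30M value had 300.0, 304.7 and 306.8 FPKM, and the 3 nearest genes outside had 294.1, 292.3 and 291.6 FPKM. The ratio of the smallest Y30M to the largest Y6M value was 10.3, 10.4 and 10.6 in the nearest members and 9.19, 8.83 and 8.54 in the nearest genes outside. The lowest values of the largest Y6M library among members were 0.585, 0.714 and 0.765 FPKM, and the minimum of 0.1 FPKM left out no gene.

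The juvenile levels of the members ran over a continuous range. They were split at a mean of 3 FPKM in Y6M, a limit chosen after the values were seen, with 29 members below it and 20 at or above it. The 29 low members summed to 42.1, 25.6 and 12.2 FPKM in Y6M replicates 1, 2 and 3, from 1438, 1140 and 466 reads. In 24 of them replicate 1 was the highest and replicate 3 the lowest. The 20 higher members summed to 749, 756 and 529 FPKM, from 24761, 27933 and 13942 reads, and 6 of them had that order. In Y30M both sets were alike in sum, with 18114, 33312 and 23016 FPKM in the 29 members and 19892, 34345 and 21109 FPKM in the 20 members.

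Counts were small for the low members. Under 10 reads were recovered for 3, 9 and 20 of the 49 members in Y6M replicates 1, 2 and 3. In Y6M replicate 3, 7 members were at 0. For these 7, a limit of 3 reads stood for 0.0979 to 0.731 FPKM in that library, and their Y30M means were 2781 to 9291 times this limit. All 7 had reads in Y6M replicates 1 and 2, which this limit leaves out. The most abundant member had the largest of these folds, and its ratio of the means was 1606. Such reads and limits cover counting error only.

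Y6M replicate 3 was the lowest juvenile library for 43 of the 49 members (87.8%), for 55.1% of the 138 other abundant genes and for 32.9% of all genes tested. Ties counted for the lower replicate number, so genes without reads in several libraries lowered the last of these shares. Y6M replicate 3 also had the fewest reads, 24.4 M against 29.6 M and 33.6 M. Of the 10 cell type markers with a name, 8 were highest in this library among the Y6M libraries and 2 were lowest there, as most members were. The 2 were Sertoli genes, DHH with 44.6, 42.5 and 19.2 FPKM and SOX9 with 39.7, 40.8 and 33.8 FPKM in Y6M replicates 1, 2 and 3. The sums were 218, 201 and 241 FPKM for 4 Sertoli genes, 14.8, 15.5 and 22.01 for 2 endothelial genes, and 11.4, 15.9 and 32.3 for 3 spermatocyte genes (SYCP3, MLH3 and HORMAD1, genes of meiotic chromosomes). LHCGR, the receptor for luteinizing hormone of Leydig cells, had 39.7, 34.4 and 67.3 FPKM. The share of all genes highest in Y6M replicate 3 was not counted. The part of cell makeup in the juvenile values of the members was not tested.

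Among the mature animals, replicate 2 had the highest levels for most members. It was the highest Y30M library for 36 of the 49 members (73.5%), replicate 3 for 9 and replicate 1 for 4. For the 138 other abundant genes it was the highest in 37.0%, and for all genes tested in 20.6%. Ties again counted for the lower replicate number. The members' median log2 ratio of replicate 2 over replicate 1 was 0.76, with 44 of 49 above 0, and that of replicate 2 over replicate 3 was 0.63, with 40 of 49 above 0. Replicates 3 and 1 lay closer, with a median log2 ratio of 0.15 and 29 of 49 above 0. For the other abundant genes the same medians were -0.10, 0.04 and -0.11.

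**Figure D3:**
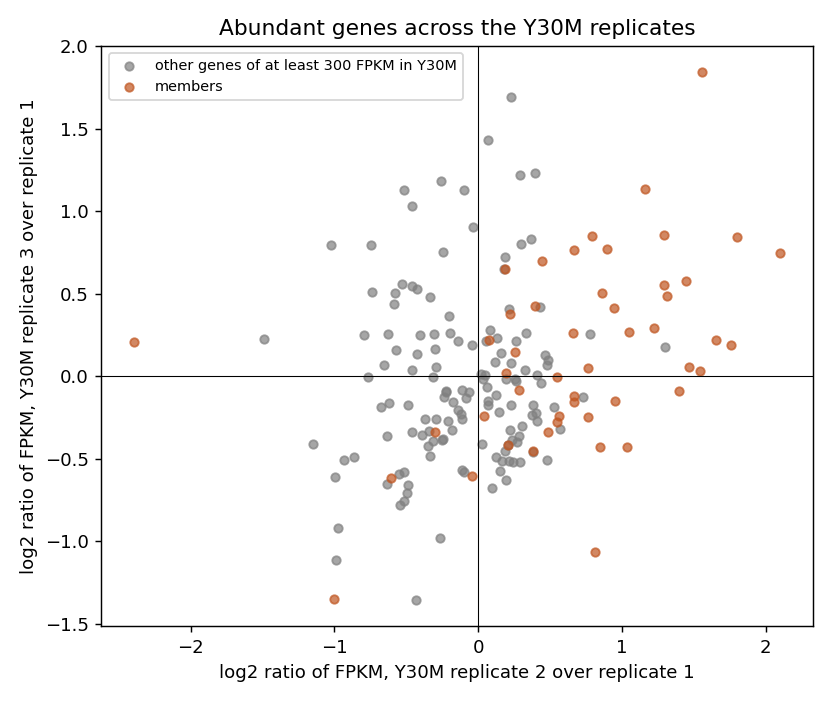
log2 ratio of FPKM in Y30M replicate 2 over replicate 1 (x axis) and replicate 3 over replicate 1 (y axis) for the 49 members (orange) and the 138 other genes of at least 300 FPKM (grey), with 1 point per gene. Of the members, 44 of 49 lie right of 0 on the x axis, against 63 of 138 other genes, and 29 of 49 lie above 0 on the y axis.

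The spread within Y30M differed widely between members. The highest Y30M value was 1.14 to 6.08 times the lowest, with a median of 1.82 (1.53 for the other abundant genes). The ratio was at least 2 in 22 members and at least 3 in 7. The widest spread was in the 9th member, a gene model of 541 bp without a name, with 1904, 362 and 2199 FPKM in Y30M replicates 1, 2 and 3. This was the only member whose lowest Y30M value was in replicate 2. The 3rd member, of 339 bp, had 1100, 4723 and 1848 FPKM, so that replicate 2 was high there, as in the first member.

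Marker genes also moved in Y30M replicate 2. All 10 cell type markers with a name were lowest in this library among the Y30M libraries, and their summed FPKM was 91.0, 51.9 and 133.8 in replicates 1, 2 and 3. By cell type, the sums were 50.6, 29.7 and 43.5 FPKM for 4 Sertoli genes, 1.67, 1.44 and 5.37 for LHCGR, 6.95, 3.69 and 5.33 for 2 endothelial genes (PECAM1 and CDH5), and 31.8, 17.1 and 79.6 for 3 spermatocyte genes. None of the 10 markers was at 0. The share of all genes lowest in Y30M replicate 2 was not counted. Of all genes tested, 20.6% were highest in it, 40.8% in replicate 1 and 38.7% in replicate 3, with ties counted as above. The part of cell makeup in the members' level in Y30M replicate 2 was not tested. Without Y30M replicate 2, the share of summed FPKM in Y30M was 6.77%, and the rule gave 51 genes, which included all 49 members.

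Genes of sperm structures outside the members gave a view of named genes with a like course. Of 167 genes on lists for sperm chromatin, flagellum, acrosome, energy metabolism, kinases, translation, chaperones and m6A factors, 17 had a name in these data, GSG1 among them. Of the other 16, 13 rose and 1 fell in Y30M by the same limits, and 2 did not pass. The names came from tables the study made from these samples, where 33.0% of the named genes tested were higher and 26.5% lower, so these counts are no independent evidence of a direction. No gene of the chromatin and the chaperone lists had a name.

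All 3 flagellum genes with a name rose. SPATA6, needed for the connecting piece of the sperm neck and tail, came nearest to the level of the members, with juvenile values of 3.49, 3.87 and 5.01 FPKM and mature values of 183, 573 and 472 FPKM. Its log2 fold change was 6.18 ± 0.46 (SE), with an adjusted p of 0.000352 in limma. SPATA18 had 0.293 ± 0.214 FPKM in Y6M and 138 ± 92.6 in Y30M, and DNAI2, a dynein intermediate chain, had 0.903 ± 0.463 and 21.2 ± 5.64 FPKM (SD, n = 3 each). In all 3, Y30M replicate 2 was the highest library, as for most members. Over the 16 named genes of these lists outside the members, replicate 2 was the highest in 7, replicate 3 in 6 and replicate 1 in 3.

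Both other acrosome and sperm head genes rose. ACRBP, which binds the precursor of the protease acrosin, went from 3.69, 4.49 and 2.39 FPKM in the juveniles to 161, 265 and 142 FPKM. CYLC2, of the sperm head's cytoskeleton, was listed at 0 in 2 Y6M libraries and had 17.4, 46.8 and 74.3 FPKM in Y30M, so that replicate 3 was its highest library.

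All 4 energy genes with a name rose, with log2 fold changes from 3.30 to 7.22. OXCT2, the testis form of the enzyme that activates ketone bodies, had 0.230 ± 0.101 FPKM in Y6M and 220 ± 162 in Y30M (SD, n = 3 each). COX7B2, ACSBG2 and AK1 had Y30M means of 193, 108 and 77.9 FPKM. CAMK4, the one kinase with a name, rose from 0.721 ± 0.271 to 16.0 ± 3.50 FPKM. None of these genes reached 300 FPKM in all mature libraries.

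The lists for translation and m6A factors were mixed. EIF4G3 and BOLL rose, with log2 fold changes of 1.44 and 4.84. The cap-binding factor EIF4E had 14.3, 9.60 and 28.1 FPKM in the juvenile and 20.95, 33.1 and 74.98 FPKM in the mature libraries. It did not pass the limit on the unadjusted p (limma, unadjusted p = 0.0920, adjusted p = 0.165). It passed that limit once the fit held replicate numbers as a block (limma, unadjusted p = 0.0131, adjusted p = 0.0308). Among the m6A readers, IGF2BP3 rose (0.730 ± 0.213 to 2.55 ± 0.708 FPKM), IGF2BP2 fell (22.4 ± 0.312 to 5.90 ± 1.74 FPKM), and YTHDF2 had 19.1 ± 2.13 and 26.9 ± 3.21 FPKM, under the fold change asked for (SD, n = 3 each).

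The few somatic markers with a name went the opposite way to the members. All 7 fell in Y30M, with log2 fold changes from -0.94 (SOX9) to -3.98 (INHBA, a subunit of activin and inhibin), and the others were FSHR, DHH, LHCGR, PECAM1 and CDH5. They were 4 of 15 genes on the Sertoli list, 1 of 9 on the Leydig list and 2 of 15 on the peritubular, endothelial and blood list. For comparison, 19% of all genes tested and 26.5% of the named genes tested were lower. The names came from tables the study made from these samples, so this count is no independent evidence of a direction. Of the 3 spermatocyte markers, SYCP3, of the synaptonemal complex, rose from 3.05 ± 1.93 to 18.1 ± 12.3 FPKM. MLH3 did not pass the limit on the unadjusted p without the block (limma, unadjusted p = 0.0878, adjusted p = 0.159). It passed with the block (limma, unadjusted p = 0.0202, adjusted p = 0.0434). HORMAD1 had 13.5 ± 8.32 and 17.7 ± 16.5 FPKM (SD, n = 3 each).

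The members mostly had short gene models and few listed m6A peaks. The table of the peak comparison listed 16318 peaks, called over the replicates of both ages together, so a peak has no replicate error. It held 8 peaks on 6 of the 49 members (12.2%, exact 95% binomial interval 4.63 to 24.8), while 44.3% of all genes tested had a listed peak. Of the 137 other abundant genes with a known length, 38 had one (27.7%, interval 20.4 to 36.0). None of the 5 most abundant members (0 of 5) had a listed peak, and 2 of the 14 members above 1000 FPKM had one.

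Gene length moved with the peaks. The median length was 1152 bp in the members (168 to 4781 bp), 828 bp in the other abundant genes, and 2089 bp in 15369 genes with at least 100 reads. Below 1500 bp, 1 of 36 members had a listed peak (2.78%, interval 0.0703 to 14.5), against 19 of 101 other abundant genes (18.8%, interval 11.7 to 27.8) and 35.2% of the genes with at least 100 reads. At 1500 bp or longer, 5 of 13 members had one (38.5%, interval 13.9 to 68.4), against 19 of 36 other abundant genes (52.8%, interval 35.5 to 69.6) and 65.9%. The intervals of the members and of the other abundant genes overlapped in both classes and over all lengths, which does not show that the shares are alike. They cover counting error only, because genes are not replicates, and the difference was not tested. The longest member without a peak had 3787 bp and the shortest with one 1448 bp. All lengths are those of the gene models. Among the 15369 genes, 50.4% had a length that is a multiple of 3, as a whole coding sequence has. The study found m6A peaks most abundant near the 3' untranslated region. Whether the models of the members hold their untranslated regions was not examined, so a short model or a missing peak may depend on the annotation.

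**Figure D4:**
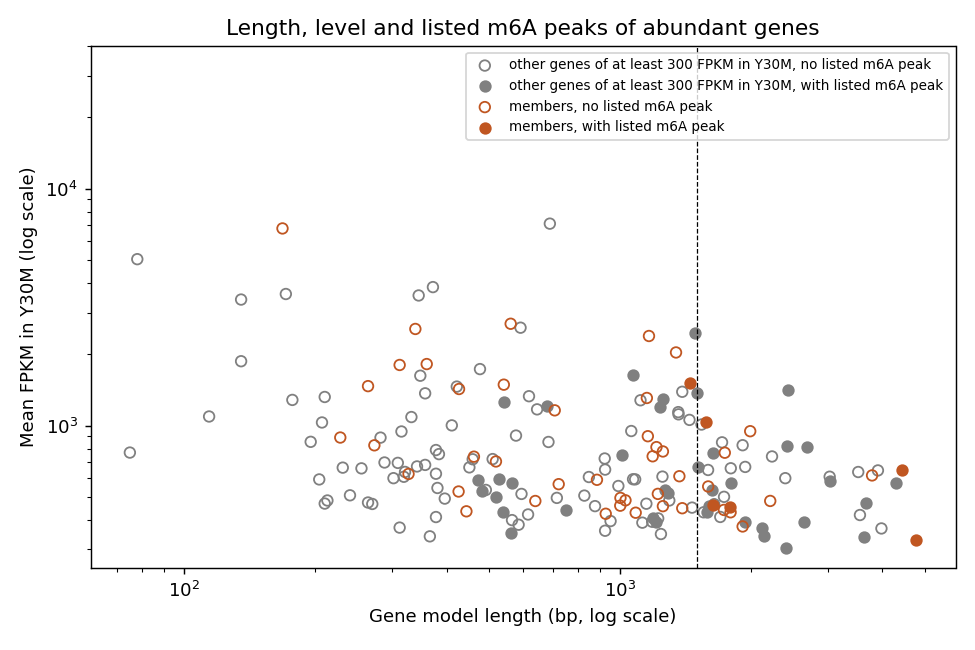
Gene model length (bp, log scale) and mean FPKM in Y30M (log scale) of the 49 members (orange) and 137 other genes of at least 300 FPKM (grey), filled where the gene had a listed m6A peak, with a dashed line at 1500 bp. Of the 36 members left of the line 1 is filled, and of the 13 right of it 5 are.

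The 8 peaks of the members are given in LU_Bosgru_v3.0, 1-based, and the table lists them as exon blocks, so the span of a peak can hold introns. The peaks of 2 members had a false discovery rate (FDR) of at most 0.05 for their own enrichment of the antibody library over input. By the same limit, 10 of the 137 other abundant genes (7.30%) and 32.5% of all genes tested had a peak, against 4.08% of the members. The other 4 members had peaks listed with an FDR of 1, with fold enrichments from 1.89 to 3.37. The median fold enrichment was 2.66 over the members' 8 peaks, 1.90 over the 55 peaks of the other abundant genes and 2.31 over all listed peaks.

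The strongest enrichment was at chr12:33910625-33910920 on the plus strand, in 1 block of 296 bp, with a fold of 3.63 and an FDR of 1e-15. The member it lies in, the 14th by mean, had a gene model of 1572 bp, with mature values of 1639, 817 and 644 FPKM and juvenile values of 60.5, 23.7 and 3.72 FPKM. It was 1 of the 4 members highest in Y30M replicate 1. A peak of the Y6M list lay inside it, at chr12:33910674-33910920. This list was taken from the adenosines scored for m6A in the juvenile libraries, so it holds only juvenile peaks with a scored adenosine. Whether the mature libraries had a peak of their own there was not examined.

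The other peak with an FDR within the limit was at chr3:20240326-20242793 on the minus strand, in 3 blocks of 150 bp in all, with a fold of 1.41 and an FDR of 2.51e-11. It lay in the longest member (4781 bp), which had the lowest mean of all members in Y30M, with 300.0, 359 and 332 FPKM. In Y6M this gene had 2.39, 1.78 and 1.33 FPKM, and it was the only member with a peak that had no overlapping peak in the Y6M list. A juvenile peak without a scored adenosine would be missing from that list, so this does not show that none was called.

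The member on chromosome 9, a gene model of 4442 bp, had peaks at chr9:7803272-7805173 (fold 2.07) and chr9:7812805-7821033 (fold 2.82, 850 bp in 7 blocks), both with an FDR of 1. Its mature values were 456, 880 and 607 FPKM and its juvenile values 15.2, 17.3 and 20.2 FPKM, the one case among the members with peaks where Y6M replicate 3 was the highest. The member on chromosome 26, of 1788 bp, had peaks at chr26:25300130-25302137 (fold 3.35) and chr26:25302286-25302435 (fold 1.89). Together these covered 696 and 150 bp of its exons, and its Y30M values of 423, 445 and 493 FPKM lay close together. In Y6M it had 13.3, 10.3 and 8.77 FPKM.

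The 2 remaining peaks were at chr19:48892994-48893242 (fold 3.37, 249 bp) and chr20:59288863-59292012 (fold 2.49, 400 bp in 2 blocks). The member on chromosome 20 was the 8th by mean, with 1298, 2063 and 1195 FPKM in Y30M, while it had 84.6, 93.8 and 49.02 FPKM in the juveniles. Its peak had the same bounds in the Y6M list. The member on chromosome 19 had mature values of 305, 710 and 374 FPKM and juvenile values of 18.3, 18.6 and 11.8 FPKM.

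In all, 7 of the 8 peaks, on 5 members, overlapped a peak of this juvenile list of peaks with scored adenosines. Overlap was taken between whole spans, introns included, and strand was not compared. The peaks were not compared with a list of mature peaks, so neither an overlap nor its absence tells at which age a peak was present. All 5 of these members were among the 20 with a mean of at least 3 FPKM in Y6M, and their means there ran from 10.8 to 75.8 FPKM. Of the 29 members below 3 FPKM, 1 had a listed peak. The level in Y6M and the calling of a peak in Y6M cannot be told apart in these members.

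The list of scored adenosines gives a predicted m6A score between 0 and 1 for adenosines inside the juvenile peaks. In the exon blocks of the members' peaks, 39 of 68 scored adenosines were called sites (57.4%, exact 95% binomial interval 44.8 to 69.3), where the lowest score of a called site in the list was 0.528. The share was 41.0% inside the exon blocks of all listed peaks (89415 adenosines) and 41.7% inside those of the other abundant genes (55 of 132). Of the 68 adenosines, 30 and 6 lay in the 2 peaks on chromosome 9, and adenosines of 1 peak share its sequence, so the interval covers counting error only. At a score of at least 0.7, 4 of the 68 were left (5.88%), and 3.89% inside all listed peaks.

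By peak, 16 of 30 and 4 of 6 scored adenosines were called on chromosome 9, 4 of 5 on chromosome 12, 2 of 5 each on chromosomes 19 and 20, and 8 of 14 and 3 of 3 on chromosome 26. The highest score was 0.782, in the longer peak on chromosome 9. The mature list of scored adenosines used here covered chromosomes 1 and 2, where no member had a peak, so mature sites of the members were not analysed here.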

How the data were processed

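Per the study's methods, the authors trimmed reads with Trimmomatic, removed ribosomal RNA with SortMeRNA, aligned reads with HISAT2 to LU_Bosgru_v3.0 and called m6A peaks with MeTDiff against input. The deposited FPKM values (fragments per kilobase, scaled by mapped reads, by the authors, counting tool not given in the sources used here) cover 6 input libraries, 1 per animal. The deposited peak table gives a fold enrichment ratio of antibody over input with its p-value and FDR, and the deposited site lists a prediction score. The authors' own differential fold changes and p-values in that table were not used. Strand use in counting is not given in the sources used here.

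The members and gene lists were chosen with earlier results of these data known. Whole reads and gene lengths were recovered from the steps between FPKM values (whole within 0.01 reads for 99.99% of values, and whole lengths for 99.8% of genes), and whether a unit is a read or a pair is not given in the sources used here. All 19477 genes above 0 were fitted with limma 3.58.1 (R 4.3.3) on log2(FPKM + 1), a scale that understates changes of low genes, with Benjamini-Hochberg adjustment, and the fit was tested on simulated data. A count model was not run on the recovered reads, because the main unit is FPKM. Intervals are exact binomial at 95% (scipy 1.17.1). Deviations of same-numbered libraries correlated at 0.209, 0.283 and 0.604, so the fit with the replicate number as a block was run beside the main one. Differently numbered libraries correlated as strongly in places (Y6M replicate 1 with Y30M replicate 2 at 0.322, and Y6M replicate 2 with Y30M replicate 1 at 0.253), and no label says what a number shares. Replicates are separate animals. Named were GSG1, the 2 members without a name that had the highest Y30M means, the members with peaks by position, the nearest genes at each limit by value, and list genes by size of change. The 3rd and 9th members were picked after their values were seen. Gene names came from tables of the study (2133 of 20953 genes matched). No sequence is shown.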

Additional observations from a re-analysis of the deposited data

How the results depend on the processing

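The member count depended on the limits. It was 89 at a minimum of 200 FPKM, 19 at 500 and 104 with FPKM rescaled to the same sum per library (TPM), which raises the Y30M values against a fixed minimum, and the 49 members were within the sets of 89 and 104. Leaving out each library in turn gave 48 to 69 genes, with 69 without Y30M replicate 1. The share of FPKM in Y30M was 5.36% at 500 FPKM, 4.63% from reads (chosen after seeing the data), and 6.77% to 9.07% without 1 Y30M library. In Y6M it was 0.132% at 200 FPKM, 0.0776% at 500, 0.0795% from reads, and 0.0957% to 0.115% without 1 Y6M library. Members with a listed peak numbered 10 at 200 FPKM and 2 at 500, and 2 at an FDR of at most 0.05. Called sites fell from 57.4% to 29.4% at a score of 0.6 and 5.88% at 0.7. With TPM, Y30M replicate 2 was highest in 35 members.

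Over all genes, 5320 were higher and 3691 lower, and 5616 and 4131 with the replicate block, which among the 26 list genes outside the members changed the calls of EIF4E and MLH3 only. Higher genes were 54.2% of the calls with median-of-ratios factors and 64.6% with TPM, against 59.0%. IGF2BP3 missed the fold limit with a pseudocount of 5, SOX9 missed a fold of 2, and YTHDF2 passed with TPM. By the unadjusted p, EIF4E also passed with TPM and with a filter at a mean of 1 FPKM. It passed likewise without Y6M replicate 3 (log2 fold change 1.59) and without Y30M replicate 1 (1.60). MLH3 passed by the unadjusted p with TPM and without Y30M replicate 2 (1.10). The log2 fold change of HORMAD1 reversed to -0.23 without Y6M replicate 1 and to -0.53 without Y30M replicate 3, against 0.16, and its values without 1 library ran from -0.53 to 0.67. The causes were not tested.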
